A study of Mus musculus with 4 samples.

Results

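The Serpinb9 genes of the mouse form a small family of clade B serpins, and 7 of them (Serpinb9, Serpinb9b, Serpinb9c, Serpinb9d, Serpinb9e, Serpinb9f and Serpinb9g) were followed by name in a count table of 24421 genes. The family was selected on a measured value, since Serpinb9b was among the highest genes of both knockout libraries against wild type of the same day. All 7 genes passed the minimum of 10 reads in at least 1 library that 14393 genes passed. Serpinb9c, Serpinb9d, Serpinb9f and Serpinb9g passed it through 1 library alone.

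RNA sequencing was made from whole ICR mouse embryos. There was 1 wild-type library of embryonic day 7.5 (WT E7.5), 1 wild-type library of embryonic day 8.5 (WT E8.5) and 2 libraries of embryonic day 8.5 that lacked Ddx6 (KO1 and KO2). Ddx6 encodes an RNA helicase of mRNA decay and translational repression, and its null allele was made by excision of floxed exon5 with Cre driven by the CAG promoter. Per the study, each KO library was a pool of embryos. KO1 joined a pre-head-fold-like and a head-fold-like embryo, whereas KO2 held pre-head-fold embryos only. The KO libraries therefore differed in morphological stage, and each is given on its own.

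Serpins are protease inhibitors that trap their target by a large change of shape after the target cuts an exposed loop. Clade B serpins lack a classical signal peptide and act mostly inside the cell. Serpinb9 inhibits granzyme B, the serine protease that killer lymphocytes deliver into target cells through perforin pores, and protects the killer cells themselves. Serpinb9b inhibits granzyme M. In the mouse the family has expanded into a cluster of related copies, and granzymes and their inhibitors are known from the pregnant uterus and placenta, where granzyme-rich natural killer cells of the mother lie close to trophoblast.

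The 7 genes lie on chromosome 13 between 33003250 and 33496004 (GRCm38), a span of 492.8 kb, with 6 genes on the plus strand and Serpinb9c on the minus strand. Serpinb9 (33003250 to 33017957) and Serpinb9b (33027416 to 33041884) are neighbours at the start of this span. Serpinb1b separates them from Serpinb9c (33149275 to 33159742), Serpinb9d (33192959 to 33203129), Serpinb9e (33249612 to 33260850), Serpinb9f (33324077 to 33335370) and Serpinb9g (33484790 to 33496004). The copy Gm11397, which lies between Serpinb9f and Serpinb9g, was not analysed here. All positions are whole genes of the GENCODE annotation.

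**Figure D1:**
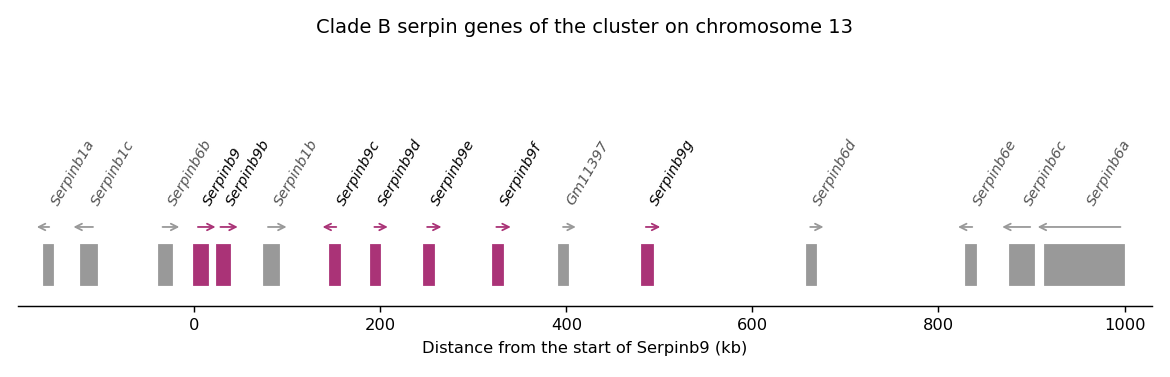
Map of the clade B serpin genes of the cluster, with the distance from the start of Serpinb9 in kb on the horizontal axis. Boxes are whole genes to scale, the 7 family genes are purple and the others grey, and arrows give the strand. Serpinb9 and Serpinb9b sit together at the left, and the other 5 family genes follow after Serpinb1b.

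In coding sequence, Serpinb9d, Serpinb9e, Serpinb9f and Serpinb9g were between 94.3% and 98.7% identical, with Serpinb9f and Serpinb9g the closest pair. Serpinb9 and Serpinb9b were 85.3% identical, and Serpinb9c was between 74.6% and 79.3% identical to the other 6, closest to Serpinb9. The 250 bases before the RefSeq start sites were between 80.4% and 92.9% identical among Serpinb9d to Serpinb9g, and 56.2% identical between Serpinb9 and Serpinb9b. Serpinb9c shared between 55.7% and 62.8% of these bases with Serpinb9d to Serpinb9g, and between 41.2% and 45.2% with Serpinb9 and Serpinb9b.

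The 100 bases before each start are shown because these sequences show the likeness among Serpinb9d to Serpinb9g and between Serpinb9 and Serpinb9b. They are RefSeq sequences of GRCm38.p6, written 5′ to 3′ on the strand of the gene. Capitals mark TGACGT, the core of a cyclic AMP response element. The windows are chr13:33004441-33004540 (plus) for Serpinb9, chr13:33027314-33027413 (plus) for Serpinb9b, chr13:33159755-33159854 (minus) for Serpinb9c, chr13:33192855-33192954 (plus) for Serpinb9d, chr13:33249508-33249607 (plus) for Serpinb9e, chr13:33323977-33324076 (plus) for Serpinb9f and chr13:33484690-33484789 (plus) for Serpinb9g. None overlaps a GENCODE exon (0 exons). The Serpinb9 window lies in an intron of a longer GENCODE transcript that starts 1291 bases upstream. RefSeq lists 2 starts for Serpinb9c, and the outer was used.
Serpinb9: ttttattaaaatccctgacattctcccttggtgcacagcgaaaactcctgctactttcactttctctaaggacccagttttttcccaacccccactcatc
Serpinb9b: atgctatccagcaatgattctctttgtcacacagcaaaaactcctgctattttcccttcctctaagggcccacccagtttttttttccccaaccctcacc
Serpinb9c: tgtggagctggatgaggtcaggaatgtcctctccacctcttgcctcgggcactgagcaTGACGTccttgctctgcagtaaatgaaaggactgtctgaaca
Serpinb9d: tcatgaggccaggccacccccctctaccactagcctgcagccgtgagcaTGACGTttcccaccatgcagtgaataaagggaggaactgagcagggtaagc
Serpinb9e: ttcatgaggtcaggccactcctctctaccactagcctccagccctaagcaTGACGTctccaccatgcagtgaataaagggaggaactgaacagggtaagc
Serpinb9f: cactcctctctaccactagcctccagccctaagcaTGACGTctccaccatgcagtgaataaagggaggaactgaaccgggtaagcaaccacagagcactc
Serpinb9g: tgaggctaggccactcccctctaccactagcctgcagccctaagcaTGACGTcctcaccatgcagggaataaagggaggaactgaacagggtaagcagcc

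TGACGT was present in the windows of Serpinb9c, Serpinb9d, Serpinb9e, Serpinb9f and Serpinb9g, with its first base between positions -65 and -42 relative to the start. The motif was searched on both strands in longer windows of 250 bases before to 50 after each start. It had 0 matches in those of Serpinb9 and Serpinb9b, and 7.51% of 32851 promoters held it. It was chosen after the sequences had been seen, and the copies are related by duplication, so that the matches are not independent of each other. Also searched were TGANTCA (AP-1), GATAA (GATA factors), GGAATG (TEAD) and GCCNNNGGC (TFAP2), which 7.81%, 25.4%, 14.7% and 16.6% of promoters held. Of these, GGAATG and GCCNNNGGC had 1 match each in Serpinb9c, at positions -80 and -59, without overlap with TGACGT, and all other counts in the 7 longer windows were 0. No binding was measured.

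Total counts were between 8198402 (KO1) and 12562640 (WT E8.5), and Ddx6 was 5.53-fold (KO1) and 6.10-fold (KO2) lower than in WT E8.5. Levels are given as reads and as CPM, the reads scaled to a common library total with trimmed mean of M-values (TMM) factors. A library with 0 reads of a gene allows up to 3 reads, which is 0.357 CPM in KO1 and between 0.244 and 0.252 CPM in the other libraries. Intervals are exact 95% intervals that cover counting error only. Where a library had 0 reads, a fold against it was computed against 3 reads. It is a lower bound for the reads seen in the other library and leaves out their counting error. For Serpinb9e in KO2 over WT E8.5 the bound was 5.54 on the log2 scale, and the lower end of the exact interval 5.22. Differences in log2 CPM carry a prior count of 2, and a gene was called where this difference passed 1 in either direction. Comparisons with WT E8.5 carry no p-value, since that contrast selected the family. In whole embryos, fewer expressing cells and less RNA per cell cannot be told apart.

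Serpinb9b, whose KO values selected the family, had 120 reads in WT E7.5, 9 in WT E8.5, 55 in KO1 and 509 in KO2. This was 10.1, 0.732, 6.55 and 41.8 CPM. WT E8.5 was the lowest library, KO1 lay below WT E7.5, and KO2 was above all others. Against WT E8.5 the level was 8.94-fold higher in KO1 (interval of the log2 ratio 2.13 to 4.36) and 57.0-fold higher in KO2 (4.90 to 6.97). The mean difference in log2 CPM was 4.20 ± 1.87 (SD, n = 2). Ranked by the smaller of its 2 differences, 2.88, Serpinb9b was number 5 of all genes kept. Number 10 was Lrrc38 (2.66), the last of the 10 highest, and number 11 was Ccno (2.63), the first outside them.

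Against WT E7.5, Serpinb9b was 1.54-fold lower in KO1 (log2 ratio -1.11 to -0.15) and 4.14-fold higher in KO2. The KO libraries thus lay on either side of the earlier wild-type stage. WT E7.5 itself was 13.8-fold above WT E8.5 (2.81 to 4.95), which placed Serpinb9b at number 58 of all genes for the stage difference. KO2 was 6.38-fold above KO1 (2.27 to 3.10).

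Serpinb9, the granzyme B inhibitor, had 42 reads in WT E7.5, 17 in WT E8.5, 39 in KO1 and 173 in KO2. This was 3.53, 1.38, 4.64 and 14.2 CPM. The order was that of Serpinb9b except that KO1 lay above WT E7.5, where the interval of their log2 ratio (-0.27 to 1.06) held 0. Against WT E8.5 the level was 3.36-fold higher in KO1 (0.89 to 2.66) and 10.3-fold higher in KO2 (2.64 to 4.17). WT E7.5 was 2.55-fold above WT E8.5 (0.51 to 2.26), and KO2 was 3.06-fold above KO1. Serpinb9 was number 124 by the smaller difference in the KO libraries, 1.63.

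Serpinb9e had 29 reads in WT E7.5, 0 in WT E8.5, 0 in KO1 and 138 in KO2. It was therefore seen in WT E7.5 and KO2 alone. KO2 was at least 46.4-fold above WT E8.5 and at least 31.7-fold above KO1, and 4.64-fold above WT E7.5. KO1 was at least 6.82-fold below WT E7.5, so that the gap between these libraries was larger than counting error. Whether Serpinb9e and the 4 genes below inhibit a granzyme is not given in the sources used here.

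Serpinb9d had 4 reads in WT E7.5, 0 in WT E8.5, 1 in KO1 and 148 in KO2. KO2 was at least 49.8-fold above WT E8.5, and 36.1-fold above WT E7.5. Its 102-fold difference from KO1 rests on the 1 read there, and the lower end of the log2 interval was 4.17. Serpinb9c had 1 read in WT E7.5 and in KO1, 0 in WT E8.5 and 39 in KO2, and KO2 was at least 13.1-fold above WT E8.5. Apart from KO2, every library held at most 4 reads of these genes.

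Serpinb9g had 9 reads in WT E7.5, 1 in WT E8.5, 1 in KO1 and 81 in KO2. KO2 was 81.7-fold above WT E8.5 (log2 ratio 3.83 to 11.7) and 8.78-fold above WT E7.5. Serpinb9f had 4, 0, 0 and 46 reads, and KO2 was at least 15.5-fold above WT E8.5 and 11.2-fold above WT E7.5. The profiles of these 2 genes were the closest of all pairs in the family. The distance between their centred log2 CPM values over the 4 libraries was 0.24, whereas the farthest pair, Serpinb9 and Serpinb9e, was 3.71 apart.

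**Figure D2:**
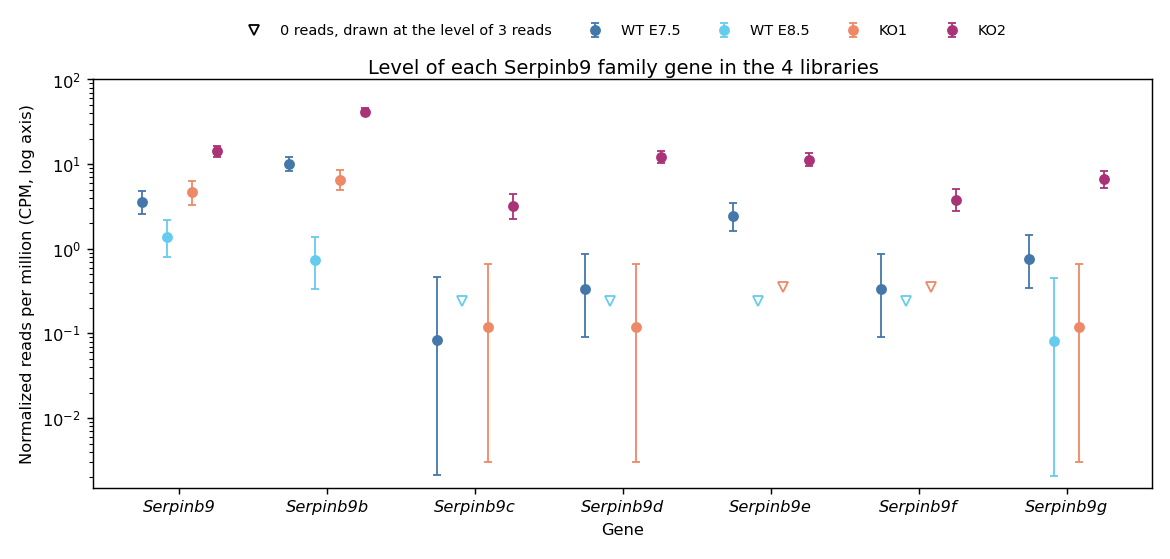
Level of each family gene (horizontal axis) in the 4 libraries in normalized CPM (log axis), with exact 95% Poisson intervals. Open triangles mark 0 reads and stand at the level of 3 reads. KO2 is the highest library for each gene, and Serpinb9 and Serpinb9b alone have more than 1 read in WT E8.5 or KO1.

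The reads of Serpinb9f and Serpinb9g cannot be assigned with certainty. Of all words of 50 bases in their GENCODE transcripts, 78.7% in Serpinb9f and 54.9% in Serpinb9g occurred in another annotated transcript, most often in Gm11397 or in each other. With words of 100 bases the shares were 52.3% and 38.5%. For Serpinb9d and Serpinb9e they were 30.8% and 28.4% at 50 bases, and 7.21% and 10.1% at 100 bases. Serpinb9c shared 18.9% of its words of 50 bases with the pseudogene Gm11385. Serpinb9 and Serpinb9b shared 0.38% and 0.50%, so the counts of these genes were nearly free of the problem. The counting options listed by the study hold none for reads with several matches, and it does not otherwise describe their treatment. The read length of these libraries is not given in the sources used here.

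Read counts were divided by transcript length to compare genes within KO2. Per kb of the GENCODE transcript, Serpinb9b had 12.8 CPM, Serpinb9d 9.72, Serpinb9e 5.89, Serpinb9 4.09, Serpinb9g 3.45, Serpinb9f 1.97 and Serpinb9c 1.68. Counting intervals overlapped between Serpinb9 (3.50 to 4.75) and Serpinb9g (2.74 to 4.29), and between Serpinb9f (1.45 to 2.63) and Serpinb9c (1.20 to 2.30). The annotation decides part of this order. RefSeq ends Serpinb9d 852 bases later than GENCODE, and with that end its level was 5.78 CPM per kb, next to that of Serpinb9e. RefSeq ends Serpinb9b 1296 bases earlier, which raised it to 21.3. Serpinb9b was the highest member on either length. Neither length was corrected for shared sequence, which was most frequent in Serpinb9f and Serpinb9g. The part of shared sequence in the order of the genes was not tested.

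Summed over the 7 genes, which keeps reads that move between members inside the sum, there were 209 reads in WT E7.5, 27 in WT E8.5, 97 in KO1 and 1134 in KO2. Reads that went to Gm11397 or Gm11385, which are not among the 7 genes, are not kept in this way. The summed level was 17.6 CPM (15.3 to 20.1), 2.20 (1.45 to 3.20), 11.6 (9.37 to 14.1) and 93.1 (87.7 to 98.6). None of these intervals overlapped. Against WT E8.5 the sum was 5.26-fold higher in KO1 and 42.4-fold higher in KO2, a mean log2 ratio of 3.90 ± 2.13 (SD, n = 2). Against WT E7.5 it was 1.52-fold lower in KO1 and 5.30-fold higher in KO2, a mean of 0.90 ± 2.13, so that the direction against the earlier stage differed between the KO libraries. Without Serpinb9b the means were 3.45 and 1.10.

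The makeup of the sum also differed between libraries. Serpinb9c to Serpinb9g together held 47 of 209 reads in WT E7.5, which was 22.5% (exact interval 17.0 to 28.8). They held 1 of 27 in WT E8.5 (3.70%), 3 of 97 in KO1 (3.09%, 0.64 to 8.77) and 452 of 1134 in KO2 (39.9%, 37.0 to 42.8). The share in KO1 was thus below that in WT E7.5, and the share in KO2 above it, by more than counting error. Serpinb9c, Serpinb9d, Serpinb9f and Serpinb9g were kept only through KO2, so that nothing is read from the higher share there. Serpinb9e held 13.9% in WT E7.5 and 12.2% in KO2, and Serpinb9d held 1.91% and 13.1%. Serpinb9b held 57.4% of the reads in WT E7.5, 56.7% in KO1 and 44.9% in KO2. Serpinb9 held 63.0% in WT E8.5, where the family was lowest, and 15.3% in KO2.

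**Figure D3:**
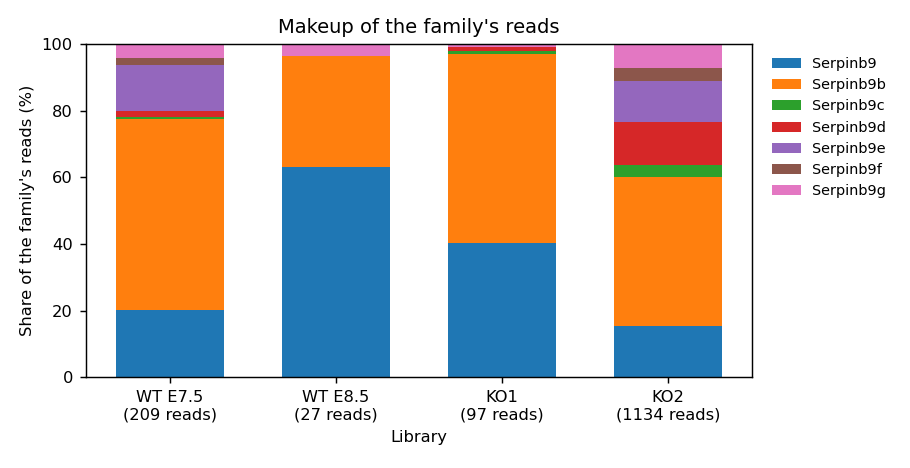
Share of the family's reads (vertical axis, percent) that came from each gene, 1 bar per library, with the summed reads under each bar. Serpinb9c to Serpinb9g take 22.5% in WT E7.5 and 39.9% in KO2, against 3.70% in WT E8.5 and 3.09% in KO1.

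Against WT E8.5, 2 of the 7 genes (Serpinb9 and Serpinb9b) were called higher in both KO libraries, and 3.44% of all genes kept were. This is the contrast that selected the family, and nothing is read from the count. In KO1 alone the same 2 genes were called, beside 4.97% of all genes. The other 5 had at most 1 read in WT E8.5 and at most 1 in KO1, and a difference between those libraries was not detectable at this depth. In KO2 all 7 were called, beside 9.41% of all genes. Since Serpinb9c, Serpinb9d, Serpinb9f and Serpinb9g were kept only through their reads in KO2, nothing is read from this count either. The median over all genes kept lay between -0.01 and 0.07 in every comparison.

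Between the wild-type stages, 6 of the 7 genes were called higher in WT E7.5 than in WT E8.5, where 7.82% of all genes were. The exception was Serpinb9c, with 1 read and 0. Counting intervals lay above 0 for 4 genes: Serpinb9, Serpinb9b, Serpinb9e (at least 9.99-fold) and Serpinb9g (9.30-fold, 0.37 to 8.67 on the log2 scale). Serpinb9d and Serpinb9f had 4 reads against 0, and their intervals held 0. The summed level was 17.6 CPM in WT E7.5 and 2.20 CPM in WT E8.5. The comparison rests on 1 library per stage, and the WT E8.5 value is part of the contrast that selected the family, so that the count is a description.

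Against WT E7.5, 0 of the 7 genes were called in the same direction in both KO libraries, where 6.91% of all genes were higher in both and 2.7% lower in both. In KO1, 0 of 7 were called higher (13.2% of all genes) and 3 were called lower, Serpinb9e, Serpinb9f and Serpinb9g (7.45%). Of these 3, the interval excluded 0 for Serpinb9e. The interval of Serpinb9b, which was not called, lay below 0 as well. In KO2 all 7 were called higher (10.9%), and KO2 was also called above KO1 for all 7 (5.99%). For the 4 genes kept only through KO2 these calls follow from the filter, and the KO2 value of Serpinb9b selected the family, so that the counts are not set against those shares. The genes kept through other libraries as well were Serpinb9, Serpinb9b and Serpinb9e, which were 4.02-fold, 4.14-fold and 4.64-fold above WT E7.5 in KO2. The summed level in KO2 was 8.06-fold above that in KO1. The 3 comparisons that hold KO2 share this library and are not independent of each other.

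**Figure D4:**
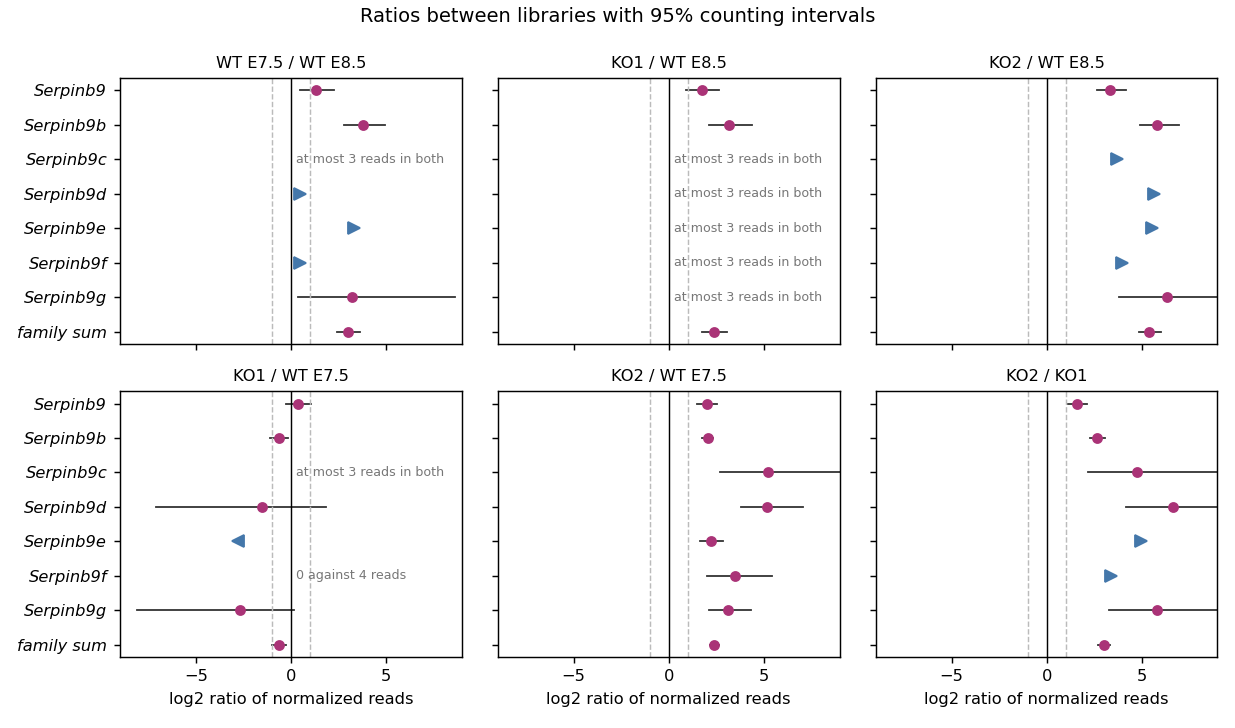
Log2 ratio of normalized reads (horizontal axis) between libraries for each family gene and their sum, 1 panel per pair of libraries. Points are ratios with exact 95% counting intervals cut at 9 on either side, triangles are bounds against 3 reads, and dashed lines stand at -1 and 1. In the 3 panels with KO2 every gene lies to the right of 0, whereas KO1 against WT E7.5 holds values on both sides.

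A quasi-likelihood test (edgeR) of the KO libraries against WT E7.5 took its spread from KO1 and KO2 alone. The KO values of Serpinb9b selected the family, and nothing about the members is read from this test. It called 0 of the 7 genes after adjustment over all genes and 0 of 14393 genes in all (0%). At an unadjusted p under 0.05 it held 0 of the 7 and 3511 genes. The smallest adjusted p of the family was 0.353, for Serpinb9c, with a fitted log2 difference of 4.18 which rests on KO2, since KO1 and WT E7.5 had 1 read each. Serpinb9 had 1.42 (adjusted p 0.359) and Serpinb9b 1.27 (adjusted p 0.538). A Wald test (DESeq2) called 0 of the 7 after adjustment. It gave no adjusted p for 5 of them, and Serpinb9d alone had an unadjusted p under 0.05 (0.0459). In log2 CPM, KO2 exceeded KO1 by 1.58 for Serpinb9 and by 2.64 for Serpinb9b, more than these fitted differences.

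Granzymes, among them the known targets of Serpinb9 and Serpinb9b, and the pore protein perforin were measured in the same libraries. Of 11 genes for granzymes and perforin, 9 passed the minimum count, and Gzmk and Gzmn had 0 reads in every library. Gzma, Gzmb, Gzmc, Gzmd, Gzme, Gzmf, Gzmg and Prf1 were called higher in both KO libraries than in WT E8.5, 8 of the 9, where 3.44% of all genes were. Of the 9, 7 were kept only through KO2, Gzmf and Gzmm being the others, so that nothing is read from this count. Counts were low, with at most 1 read of each of the 8 in WT E8.5 and between 2 and 7 in KO1, so that the calls in KO1 depend on the prior count. Gzmb, the target of Serpinb9, had 1 read in WT E7.5, 0 in WT E8.5, 3 in KO1 and 19 in KO2, and Prf1, which encodes perforin, had 0, 1, 3 and 22. Gzmm, the target of Serpinb9b, had 9, 22, 9 and 12 reads and was not called higher in either KO library. The 11 genes summed to 47, 25, 39 and 292 reads, and without Gzmm to 38, 3, 30 and 280 reads. With or without Gzmm, KO2 was highest and WT E8.5 lowest, as in the family sum. Gzmc to Gzmg are close copies of each other, so that single counts are uncertain there too.

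Markers of killer cells had few reads. Of 13 natural killer and T cell markers, 2 passed the minimum count, Il2rb (6, 2, 1 and 29 reads in WT E7.5, WT E8.5, KO1 and KO2) and Cd8a (10, 0, 7 and 39). Ncr1, Klrb1c, Klrd1, Klrc1, Klre1, Cd3e and Cd3g had at most 2 reads in any library. Ptprc had 1, 1, 0 and 8 reads, Nkg7 had 1, 1, 0 and 5, Fasl had 0, 0, 0 and 3, and Cd244 had 1 read, in KO1. The list summed to 20, 5, 10 and 87 reads, and to 10, 5, 3 and 48 without Cd8a. Macrophage markers summed to 151, 57, 46 and 301 reads over 12 genes. The part of these cells in the values of the family was not tested.

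Extraembryonic and maternal markers moved with the family between some libraries and not others. The 10 placental prolactin genes of the list for trophoblast giant cells and ectoplacental cone summed to 110 reads in WT E7.5, 12 in WT E8.5, 12 in KO1 and 9725 in KO2, or 9.25, 0.976, 1.43 and 798 CPM. Prl3d1, a giant cell hormone gene, had 27, 1, 3 and 4156. Of the other genes of the list, Rhox6 had 0.732 CPM in WT E8.5 and 6.43 in KO1, and Hand1 had 181 and 422. Rhox9 (0.244 and 0.238), Ascl2 (0.814 and 1.31) and Plac1 (18.1 and 27.4) were not called between these libraries. Prl6a1 and Ascl2 were called lower in both KO libraries than in WT E7.5 (2.7% of all genes), Ascl2 with 358, 10, 11 and 54 reads. Tpbpa and Tpbpb, markers of spongiotrophoblast and its precursors, had 0 reads throughout. Of the 19 genes of the whole list 13 passed the minimum count. Of these, 3 (Prl3d1, Prl2c2 and Rhox6) were called higher in both KO libraries than in WT E8.5 (3.44% of all genes), and 12 were called higher in KO2 than in KO1 (5.99%). The KO1 calls of Prl3d1 and Prl2c2 rest on 3 and 4 reads, against 1 and 0 in WT E8.5, and depend on the prior count. Of the 13, 3 were kept only through KO2, Prl2c2 among them, so that nothing is read from these counts.

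Prl8a2, a hormone gene of the decidua, the maternal lining of the implantation site, had 1318, 26, 64 and 1433 reads, so that WT E7.5 and KO2 were close. Of the 7 decidua markers, 1 (Prl8a2) was called higher in both KO libraries than in WT E8.5 (3.44% of all genes). Prl3c1 (135, 1, 0 and 25 reads) and Igfbp1 (121, 27, 12 and 31) were called lower in both KO libraries than in WT E7.5 (2.7%). The list summed to 1962, 283, 304 and 1818 reads, and in WT E7.5 and KO2 most of these were of Prl8a2. Elf5, a transcription factor gene of extraembryonic ectoderm, had 795 reads in WT E7.5 and 3, 3 and 10 in the others. Eomes of the same list, which per the study is also expressed in the primitive streak, had 1333, 64, 77 and 3128. It was called higher in KO2 than in WT E7.5 (10.9% of all genes). Of the 8 markers of extraembryonic ectoderm, 6 were called higher in WT E7.5 than in WT E8.5 (7.82% of all genes), and 5 were called lower in both KO libraries than in WT E7.5 (2.7%). How much of the family's reads came from extraembryonic or maternal tissue was not tested.

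Markers of the embryo proper and of endoderm moved in both directions. Of 9 markers of the embryo proper, 4 (Pou5f1, Otx2, Mixl1 and Mesp1) were called higher in KO2 than in WT E8.5 (9.41% of all genes). Sox1, Meox1 and Nkx2-5 were called lower in KO2 than in WT E8.5. Pou5f1, a pluripotency factor gene, had 3790 reads in WT E7.5, 693 in WT E8.5, 867 in KO1 and 4085 in KO2, and Mesp1, a gene of early mesoderm, had 570, 52, 52 and 741. As for the family sum, the levels of Pou5f1 and Mesp1 were high in WT E7.5 and in KO2. Other markers of the list went the other way, since Sox2, Sox1, Meox1 and Nkx2-5 were called lower in WT E7.5 than in WT E8.5. Meox1 had 3, 390, 235 and 6 reads. In both KO libraries against WT E8.5, 0 of the 9 were called higher and 2 lower, Sox1 and Nkx2-5 (1.79%). Of 10 parietal endoderm markers, 2 were called higher in KO2 than in WT E8.5 (9.41% of all genes), and 0 in both KO libraries. These 2 were Thbd (20, 56, 30 and 838 reads) and Srgn (124, 16, 20 and 223). Stra6 (194, 435, 187 and 97) was called lower in KO2 than in WT E8.5. Of 9 visceral endoderm markers, 0 were called higher in KO2 than in WT E8.5 and 3 (Apoa1, Rbp4 and Apom) were called lower in both KO libraries. The part of these differences in the values of the family was not tested.

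**Figure D5:**
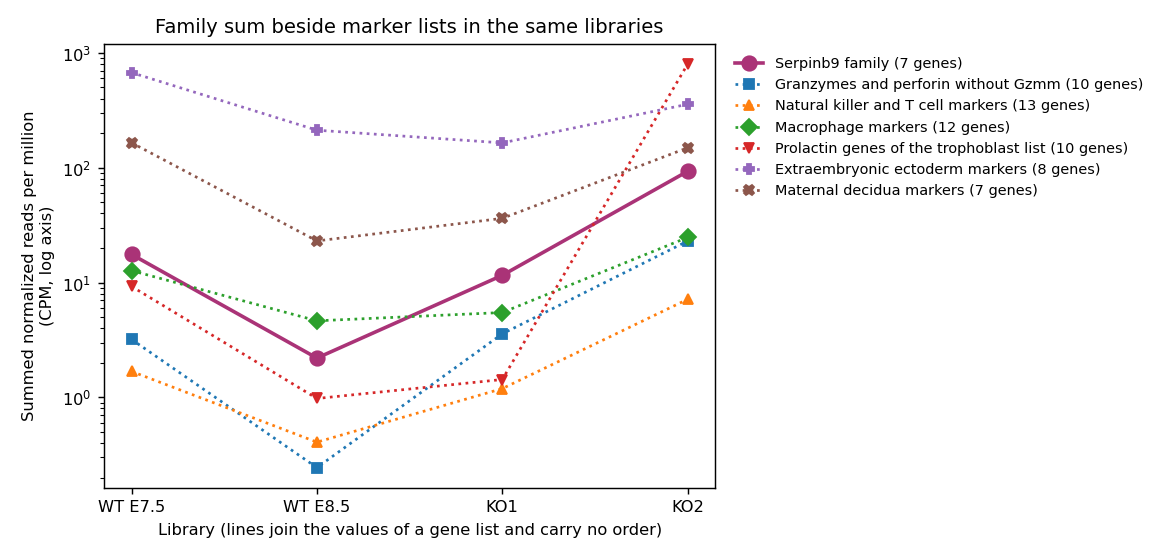
Summed normalized CPM (log axis) of the Serpinb9 family and of marker lists in each library. The family and all lists drawn except that of extraembryonic ectoderm are lowest in WT E8.5. The list of granzymes and perforin leaves out Gzmm. The prolactin genes lie at 0.976 in WT E8.5, 1.43 in KO1 and 798 in KO2.

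Other clade B serpins of the same cluster were not all higher in the KO libraries. Of 8 in the table, 4 passed the minimum count. Serpinb6b, which lies next to Serpinb9 on the same strand, had 112 reads in WT E7.5, 25 in WT E8.5, 44 in KO1 and 209 in KO2, the same order of libraries as Serpinb9b. Serpinb6c had 8, 4, 13 and 14 reads. These 2 were called higher in both KO libraries than in WT E8.5, beside 3.44% of all genes. Serpinb6a, an inhibitor of cathepsin G, had 868, 459, 515 and 913 reads and was called in KO2 alone. Serpinb1a, an inhibitor of neutrophil elastase, had 4, 10, 3 and 1 reads. Serpinb1b, within the span of the family, had 1 read in WT E7.5 and 0 in the other 3 libraries. Of 12 clade B serpins on other chromosomes, Serpinb8 alone passed the minimum, with 1, 1, 1 and 10 reads.

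The 8 genes whose profile over the 4 libraries was nearest to that of Serpinb9b were Platr10, Rhox6, Irs3, Erv3, Pla2g5, Gzmg, Anxa1 and Cd8a. Likeness was the distance between centred log2 CPM profiles, which was 0.30 for Platr10, 0.41 for Rhox6 and 0.94 for Gzmg. Rhox6, a homeobox gene of the X chromosome known from placenta, had 90 reads in WT E7.5, 9 in WT E8.5, 54 in KO1 and 376 in KO2. Erv3, an endogenous retroviral gene, had 144, 19, 60 and 686. Serpinb9 was number 71 in this order, so members of the family were not the genes most like Serpinb9b.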

How the data were processed

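Polyadenylated RNA of whole mouse embryos was measured in 4 libraries. The table deposited by the authors gives raw counts of reads for each gene, not normalized. Per their methods, reads were trimmed with Cutadapt 2.8, checked with FastQC 0.11.7, aligned to mm10 with HISAT2 2.1.0 and counted over exons with strand by featureCounts 2.0.0. Reads shared by near-identical copies may be lost or misassigned there.

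Counts were scaled by TMM factors estimated on all genes in edgeR 4.0.16 (R 4.3.3). A gene was kept where some library held at least 10 counts of it. Changes were differences of log2 CPM with a prior count of 2, called past 1 in either direction, the cut-off of the study's methods. Counting intervals were exact (Clopper-Pearson for ratios and shares, Poisson for levels, scipy 1.17.1, Python 3.11.15), at 95%. PCR copies were not marked by molecular identifiers, so these intervals cover only the error of counting. The two-sided edgeR quasi-likelihood test with Benjamini-Hochberg adjustment ran over all genes kept for KO against WT E7.5, with DESeq2 1.42.0 as the alternative. WT E8.5 had no test, since that contrast selected the family. Whether the KO libraries came from separate litters is not stated, so p-values measure the spread between these samples.

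Groups came from the sample labels. Members, gene lists and tests were chosen with earlier results of these data known. Genes named are the 7 members, Ddx6, genes of the lists called in both KO libraries or between stages and defining markers of each list, neighbouring serpins, and the 8 genes nearest to Serpinb9b by Euclidean distance over the 4 libraries. List genes that were not called, Lrrc38 and Ccno are named for contrast. Positions and transcripts came from GENCODE (GRCm38, the assembly of mm10), and sequences before start sites from RefSeq (GRCm38.p6), which held all 7 members. Scripts were tested on simulated data. The alternatives changed the scaling (DESeq2 size factors or plain CPM), the filter (none, or 50 counts), the prior count (0.5) or the threshold (2), or left out KO1 or KO2.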

Additional observations from a re-analysis of the deposited data

How the results depend on the processing

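Of 127 values computed under alternatives, 120 moved by less than 1 SD of KO1 and KO2 without a turn of direction (counts by at most 1.5 times). That SD is wide, and leaving out KO1 or KO2 always moves their mean by less than it. Nothing is therefore read from the 120. Of the 84 values of single members 81 kept their side of the threshold and 0 turned direction. With a prior count of 0.5, 3 crossed the threshold, namely Serpinb9c and Serpinb9d in KO1 against WT E8.5 (from 0.74 to 1.87 each) and Serpinb9d in KO1 against WT E7.5 (from -0.79 to -1.22), each with 1 read in KO1. The genes called higher in both KO libraries than in WT E8.5 were 2, and 4 with a prior count of 0.5, 1 with a threshold of 2, and between 2 and 7 without a KO library (7 in KO2 alone). Against WT E7.5 the count of 0 became 3 to 7 when a KO library was left out (3 lower in KO1, 7 higher in KO2). Between the WT stages the count of 6 became 2 with a threshold of 2. The summed family level against WT E7.5 was reversed without KO replicate 2, at -0.61, and ranged from -0.61 to 2.40. Against WT E8.5 it ranged from 2.39 to 5.40. The sum without Serpinb9b was chosen after seeing the data.

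The edgeR test, which called 0 of all genes kept, called 728 with no filter, and DESeq2 called 721. Each held 0 members. The cause of these differences was not tested. The edgeR test was not run without a KO library, which leaves no residual degrees of freedom. No paired analysis was possible because each WT stage had 1 library. Depth limits Serpinb9c to Serpinb9g, which had at most 1 read in WT E8.5 and in KO1, and differences between those libraries could not be seen there.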
